A study of Homo sapiens with 18 samples.

Results

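The leukocyte immunoglobulin-like receptors (LILR) were followed through 18 RNA-seq libraries from 3 acute myeloid leukaemia cell lines. The 8 genes taken were LILRB1, LILRB2, LILRB3, LILRB4, LILRA1, LILRA2, LILRA5 and LILRA6, chosen by name and found by Ensembl identifier. All 8 were among the 40184 genes of the deposited table. By the labels, the receptor kinase FLT3 has an internal tandem duplication (FLT3-ITD) in Molm-14 and MV4-11, and the genotype of SKNO-1 is the KIT mutation N822K. Each line received DMSO, the vehicle, or 500 nM RMC-4550 for 24 h. RMC-4550 is an allosteric inhibitor that holds the phosphatase SHP2, the product of PTPN11, in its closed state. Each of the 6 groups had 3 biological replicates by label, and each line is a single model of its genotype. The p-values measure the spread between these cultures only. The SKNO-1 medium, with or without drug, held GM-CSF at 10 ng/mL and that of the other lines did not, so line, genotype and growth factor cannot be told apart.

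LILR receptors sit on the surface of monocytes, granulocytes and other leukocytes and are encoded side by side in the leukocyte receptor complex. The inhibitory members (LILRB) carry immunoreceptor tyrosine-based inhibitory motifs (ITIMs) in a long cytoplasmic tail. Once phosphorylated, an ITIM binds the SH2 domains of SHP1 and SHP2, the phosphatase that RMC-4550 targets. The activating members taken here (LILRA) have a short tail and signal through the adaptor FcR gamma chain, the product of FCER1G, which carries an activating motif. Several members of both kinds recognise MHC class I molecules, and LILRB4 is a known surface marker of monocytic acute myeloid leukaemia.

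The codons of the inhibitory motifs are shown because they separate the classes that the results compare. A motif was taken as a tyrosine codon with a serine, isoleucine, valine or leucine codon 2 places before it and a valine, isoleucine or leucine codon 3 places after it. It was searched in the longest GENCODE 29 coding sequence, after the most hydrophobic window of 20 residues. The search found 3 motifs in LILRB1, LILRB3 and LILRB4 and 2 in LILRB2, with 118 to 171 residues after the window. The 4 activating members had 0 motifs and 9 to 15 residues after the window. Of 19137 coding genes with at least 100 residues, 74.9% had no such motif and 7.65% had at least 2. The 18 bases of each motif follow in coding direction on GRCh38, with the tyrosine codon in capitals.
LILRB1 motif 1, chr19:54636524-54636541, plus strand: gtgacgTATgccgaggtg
LILRB1 motif 2, chr19:54636759-54636776, plus strand: gtgaccTACgcccagctg
LILRB1 motif 3, chr19:54636849-54636866, plus strand: agcatcTACgccactctg
LILRB2 motif 1, chr19:54274785-54274802, minus strand: gtgaccTACgcccagctg
LILRB2 motif 2, chr19:54274695-54274712, minus strand: agcatcTACgccaccctg
LILRB3 motif 1, chr19:54217430-54217447, minus strand: gtgacgTATgccccggtg
LILRB3 motif 2, chr19:54217195-54217212, minus strand: gtgaccTACgcccagctg
LILRB3 motif 3, chr19:54217105-54217122, minus strand: agcatcTACgccactctg
LILRB4 motif 1, chr19:54667665-54667682, plus strand: gtgacgTATgccaaggtg
LILRB4 motif 2, chr19:54667900-54667917, plus strand: gtgaccTACgcccggctg
LILRB4 motif 3, chr19:54667990-54668007, plus strand: agtgtcTATgccactctg
Each of the 11 motifs lay within 1 coding exon. LILRB1, LILRB2 and LILRB3 have the same 18 bases at one motif (motif 2, 1 and 2, respectively), and LILRB1 and LILRB3 share motif 3.

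Such likeness between members, and other genes annotated over the same bases, bear on short-read counts. A window of 50 bases taken anywhere in the spliced transcripts recurred in another annotated gene for 27.2% of LILRB3 windows, 23.4% of LILRA6, 21.6% of LILRB1, 18.2% of LILRA2, 14.2% of LILRB4 and 14.1% of LILRB2. The share was 5.29% for LILRA1 and 3.49% for LILRA5. For LILRA2, LILRB4 and LILRA5 the gene sharing the most windows was not a LILR gene. It was AC245036.5 (14.3% of windows), VN1R105P (11.8%) and AC245884.11 (2.22%), respectively, each overlapping the member. LILRA6 and LILRB3 are a near-copy pair: 22.4% of LILRA6 windows recur in LILRB3 and 16.3% of LILRB3 windows in LILRA6. Values of LILRA6 and LILRB3 are therefore uncertain where reads could be assigned to either gene, and how such reads were counted is not given in the sources used here. LILRB1 overlaps LILRB1-AS1 on the opposite strand, and LILRB3 and LILRA6 overlap RPS9 on the opposite strand. On the same strand LILRB4 overlaps VN1R105P, MIR8061 and AC245036.3, LILRA2 overlaps AC245036.5, and LILRA5 overlaps AC245884.11. Counting by strand would not separate these. Whether counting used strand is not given either.

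Libraries held 17434810 to 19959917 reads. Mitochondrial genes took 5.073% to 7.017% of reads in 14 libraries and over 10% in the other 4: replicate 2 of Molm-14 with RMC-4550 (15.017%), replicates 1 and 3 of MV4-11 with DMSO, and replicate 1 of MV4-11 with RMC-4550. Myeloid genes marked the lines (6 or 7 of 7 markers at 1 CPM or more on average), and all 4 T cell markers had 3 reads or fewer in every library. Some markers of other cells were read: in each line 2 of 3 NK cell markers, 2 of 3 epithelial markers, 3 of 5 plasmacytoid dendritic cell markers and 2 or 3 of 4 B cell markers reached 1 CPM on average, summing to 33.8 to 182, 17.3 to 48.6, at most 84.0 and 8.03 to 20.8 CPM per library. Of these lists, CLEC4C, EPCAM and MS4A1 had 3 reads or fewer in every library. RUNX1T1, a partner in the RUNX1-RUNX1T1 fusion that SKNO-1 is known for, stood at 13.8 ± 0.608 CPM (SD, n = 3) in untreated SKNO-1, while the Molm-14 and MV4-11 libraries had 0 or 1 read each. HOXA9, a gene that KMT2A fusions such as those of Molm-14 and MV4-11 keep active, reached 137 ± 3.71 CPM in untreated Molm-14, 92.5 ± 1.75 CPM in MV4-11 and, in SKNO-1 too, 53.7 ± 1.20 CPM. Of 15562 genes whose mean reached 1 CPM in an untreated line, 52.9% had their middle value in MV4-11, 25.8% in SKNO-1 and 21.1% in Molm-14. Of the LILR genes, 7 of 8 had their middle value in MV4-11, the exception being LILRA2. The MV4-11 level stood from 11.5% (LILRA5) to 71.1% (LILRB4) of the way from Molm-14 to SKNO-1. Whether cultures or libraries of different lines were mixed was not tested, so the comparisons between lines below are comparisons of libraries as labelled. RUNX1T1 bears on 1 direction of this, since it was at 0 or 1 read in every Molm-14 and MV4-11 library.

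LILRB4 (ENSG00000186818, chr19:54643889-54670359) was the most abundant member in every group and the only one called higher with RMC-4550 in all 3 lines. It encodes an inhibitory receptor for which apolipoprotein E has been described as a ligand. Levels are given in CPM, reads set against the library size as the authors scaled it. In Molm-14 LILRB4 was read at 69.6, 70.8 and 70.3 CPM with DMSO and at 113, 85.6 and 112 CPM with RMC-4550. All treated libraries were above all DMSO libraries, and the lowest treated one was the library with 15.017% mitochondrial reads. The ratio of means was 1.47-fold and the log2 change 0.55 (SE 0.088, limma adjusted p 0.000116), and the change was 0.68 without that library. In MV4-11 it went from 215, 218 and 214 CPM to 334, 341 and 362 CPM, again without overlap, which was 1.60-fold and a log2 change of 0.68 (SE 0.088, limma adjusted p 7.19e-05). In SKNO-1 it went from 271, 276 and 278 CPM to 467, 484 and 478 CPM, which was 1.73-fold and a log2 change of 0.79 (limma adjusted p 5.96e-06). Of 12792 genes tested in all 3 lines, 398 (3.11%) were called higher in each. The log2 response of LILRB4 in MV4-11 exceeded that in Molm-14 by 0.13 (SE 0.12, limma adjusted p 0.442). Its response in SKNO-1 exceeded the mean of the other lines by 0.18 (SE 0.11, limma adjusted p 0.526), so no difference in response between lines was called. These are bulk RNA values, in which more expressing cells and more RNA per cell cannot be told apart.

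LILRB1 (ENSG00000104972, chr19:54617158-54637528), an inhibitory receptor for MHC class I molecules, rose in MV4-11 and SKNO-1 and did not rise in Molm-14. With DMSO the MV4-11 libraries were at 24.7, 20.7 and 21.1 CPM, and with RMC-4550 they were at 36.3, 32.6 and 32.4 CPM. The SKNO-1 libraries went from 45.4, 44.4 and 43.7 CPM to 62.0, 69.3 and 65.5 CPM. Neither line's groups overlapped. The log2 changes were 0.61 (SE 0.11, 1.52-fold, limma adjusted p 0.00127) in MV4-11 and 0.56 (SE 0.11, 1.47-fold, limma adjusted p 0.00121) in SKNO-1. In Molm-14 LILRB1 was near the detection filter, at 1.45, 1.21 and 1.11 CPM (20 to 26 reads) with DMSO and 1.09, 1.03 and 1.02 CPM with RMC-4550. All treated Molm-14 libraries were below the DMSO libraries, and the change of -0.25 (SE 0.11) was not called (limma adjusted p 0.0706). A lower call appeared when the fit held the mitochondrial share, under quantile normalisation and without replicate 3 of Molm-14 with DMSO.

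LILRB2 (ENSG00000131042, chr19:54273821-54281184), a second inhibitory receptor for MHC class I molecules and for angiopoietin-like proteins, was above the DMSO libraries in every treated library of all 3 lines. In MV4-11 it went from 14.3, 11.2 and 15.6 CPM to 26.4, 23.5 and 22.5 CPM, a log2 change of 0.83 (SE 0.25, 1.76-fold, limma adjusted p 0.0370). That call was lost when any 1 of the 6 MV4-11 libraries, replicate 2 of SKNO-1 with DMSO or replicate 3 of SKNO-1 with RMC-4550 was left out, with changes from 0.69 to 0.93 over all single libraries left out. In SKNO-1 it went from 28.4, 32.3 and 34.5 CPM to 46.2, 53.2 and 48.3 CPM. That change of 0.63 (SE 0.25, 1.55-fold) missed the call with all 18 libraries fitted together (limma adjusted p 0.0718). It was called in a fit of the SKNO-1 libraries alone (SE 0.079, limma adjusted p 2.56e-06, where 24.4% of all genes were called higher) and without the 4 libraries over 10% mitochondrial reads (limma adjusted p 0.00337). In Molm-14 LILRB2 went from 0.5001, 0.923 and 0.613 CPM (9 to 16 reads) to 1.15, 2.31 and 1.07 CPM (19 to 36 reads). The highest of these was the library with 15.017% mitochondrial reads. The log2 change was 1.08 (SE 0.25, limma adjusted p 0.00232), 0.73 without that library, and not called in a fit of the Molm-14 libraries alone (limma adjusted p 0.0719, with 17.8% of all genes called higher). LILRB2 passed the filter in Molm-14 only through the treated group.

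LILRB3 (ENSG00000204577, chr19:54216278-54223506), an inhibitory receptor of myeloid cells, had the largest log2 changes among the inhibitory members in MV4-11 and SKNO-1. In MV4-11 it went from 2.80, 2.40 and 2.99 CPM (47 to 52 reads) to 9.98, 8.86 and 9.90 CPM (175 to 195 reads). This was 3.51-fold and a log2 change of 1.80 (SE 0.26, limma adjusted p 0.000174). In SKNO-1 it went from 4.38, 5.37 and 4.002 CPM (85 to 117 reads) to 17.4, 21.3 and 17.7 CPM (375 to 458 reads). This was 4.09-fold and a log2 change of 2.03 (SE 0.26, limma adjusted p 2.34e-05). The groups were far apart in both lines. In Molm-14 LILRB3 had 2 to 5 reads in each of the 6 libraries and was not tested.

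**Figure D1:**
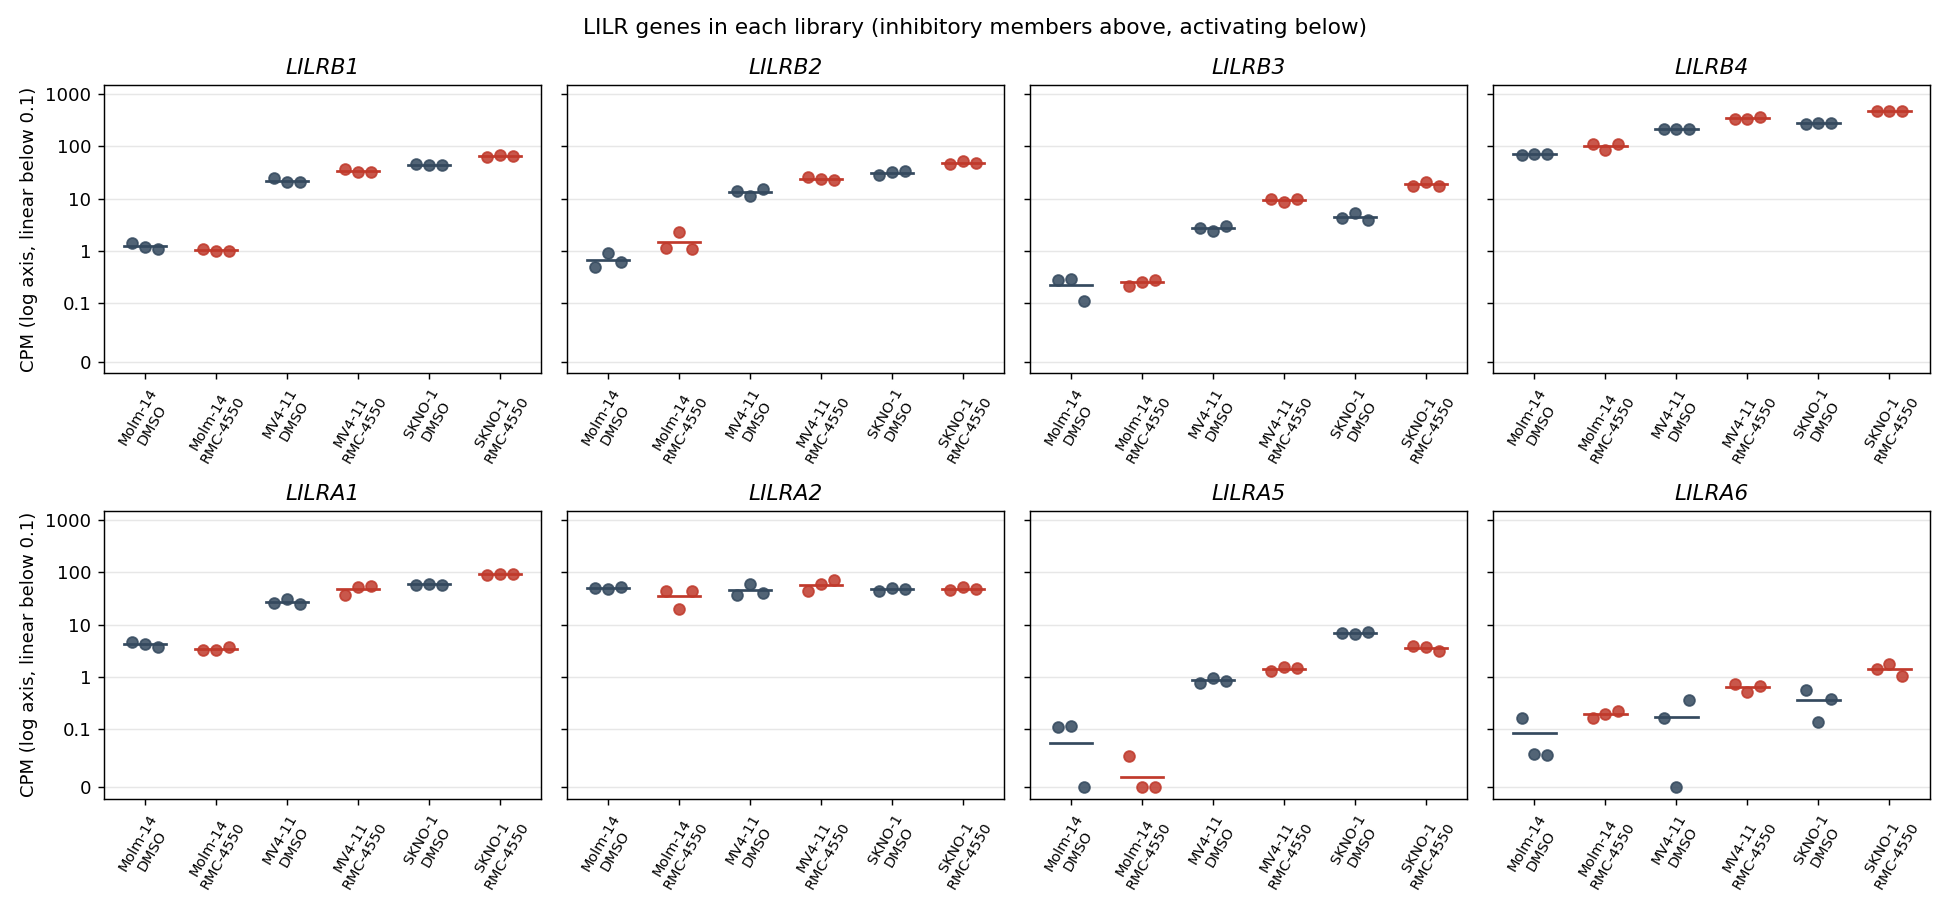
CPM of each LILR gene (log axis, linear below 0.1) in each of the 18 libraries, with 1 point per library, the group mean as a line, DMSO in dark blue and RMC-4550 in red. LILRB4 lies highest in every group, LILRB3 steps up in MV4-11 and SKNO-1 and stays at 2 to 5 reads in Molm-14, and LILRA2 lies at a like level in all 3 lines.

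Among the activating members, LILRA1 (ENSG00000104974, chr19:54593582-54602090), which binds MHC class I molecules, moved as LILRB1 did. In MV4-11 it went from 25.9, 31.5 and 24.5 CPM to 36.7, 51.6 and 53.5 CPM, a log2 change of 0.78 (SE 0.14, 1.73-fold, limma adjusted p 0.000976). A fit of the MV4-11 libraries alone did not call it (limma adjusted p 0.0613, with 2.23% of all genes called higher). In SKNO-1 it went from 57.4, 60.8 and 57.0 CPM to 89.2, 92.7 and 90.6 CPM, a log2 change of 0.64 (SE 0.14, 1.56-fold, limma adjusted p 0.0023). Both pairs of groups were free of overlap. In Molm-14 it was at 4.61, 4.33 and 3.79 CPM with DMSO and 3.23, 3.27 and 3.79 CPM with RMC-4550, and these groups overlapped. That change of -0.30 (SE 0.14) was not called (limma adjusted p 0.0765), but it was called lower without the 4 libraries over 10% mitochondrial reads (-0.27, limma adjusted p 0.0151). Over the 18 samples the log2 values of LILRA1 and LILRB1 had a Pearson r of 0.992. This describes samples that share lines and treatments and carries no test.

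LILRA2 (ENSG00000239998, chr19:54572920-54590287) is an activating receptor that senses immunoglobulin cut by microbial proteases. In the main fit it stood at a like level in the 3 untreated lines and was called in no line with RMC-4550. With DMSO it was at 49.2, 47.2 and 52.9 CPM in Molm-14, at 36.8, 58.8 and 39.9 CPM in MV4-11 and at 43.7, 49.6 and 47.4 CPM in SKNO-1. With RMC-4550 it was at 44.3, 20.2 and 42.9 CPM in Molm-14, at 43.9, 58.4 and 70.1 CPM in MV4-11 and at 44.7, 51.1 and 47.4 CPM in SKNO-1. The log2 changes were -0.56 (SE 0.25, limma adjusted p 0.0729), 0.35 (SE 0.25, limma adjusted p 0.403) and 0.02 (SE 0.25, limma adjusted p 0.955). All 3 treated Molm-14 libraries lay below the DMSO libraries, while the groups overlapped in the other lines. A lower call in Molm-14 appeared when the fit held the mitochondrial share (-0.24, limma adjusted p 0.0463). The same call appeared without replicate 1 or 3 of Molm-14 with RMC-4550 and without replicate 2 of MV4-11 with DMSO. LILRA2 was lower in the libraries rich in mitochondrial reads than in the others of the same group: 20.2 CPM against 42.9 and 44.3 in treated Molm-14, 36.8 and 39.9 against 58.8 in MV4-11 with DMSO, and 43.9 against 58.4 and 70.1 in treated MV4-11. Without those 4 libraries the changes were -0.19 (limma adjusted p 0.0578) in Molm-14 and 0.12 (limma adjusted p 0.456) in MV4-11. A fit that held the mitochondrial share called untreated LILRA2 lower in SKNO-1 than in MV4-11 (-0.50, limma adjusted p 0.00112). It also called LILRA2 higher in MV4-11 than in Molm-14 (0.37, limma adjusted p 0.00771). Leaving the 4 libraries out also changed the order of the untreated lines. The difference of SKNO-1 from MV4-11 went from 0.08 (limma adjusted p 0.799) to -0.33 (limma adjusted p 0.0194), with 1 MV4-11 DMSO library left. That of MV4-11 from Molm-14 went from -0.17 (limma adjusted p 0.574) to 0.24 (limma adjusted p 0.068).

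**Figure D2:**
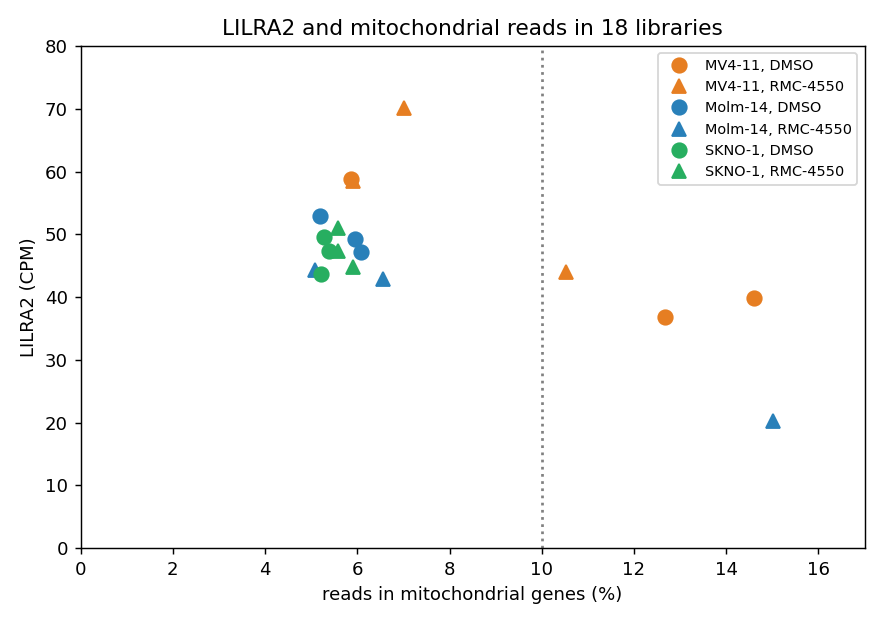
LILRA2 level (CPM) against the share of reads in mitochondrial genes (%) for the 18 libraries, with circles for DMSO, triangles for RMC-4550 and colour for the line. The 4 libraries to the right of the dotted line at 10% lie between 20.2 and 43.9 CPM, each below the other libraries of its own group.

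LILRA5 (ENSG00000187116, chr19:54307070-54313139), an activating receptor of monocytes, was the only member whose treated SKNO-1 libraries were all below the DMSO libraries. They went from 6.78, 6.52 and 7.30 CPM (142 to 155 reads) to 3.84, 3.76 and 3.08 CPM (67 to 83 reads), which was 1.93-fold lower by ratio of means. The log2 change of -0.95 missed the call with all 18 libraries fitted together (SE 0.51, limma adjusted p 0.187), where the near-zero Molm-14 values share the estimate of spread. It was called lower in a fit of the SKNO-1 libraries alone (SE 0.13, limma adjusted p 8.6e-06, where 33.2% of all genes were called lower) and with voom weights on the recovered reads (limma adjusted p 0.000384). In MV4-11 LILRA5 went from 0.753, 0.972 and 0.838 CPM (14 to 19 reads) to 1.32, 1.52 and 1.47 CPM (25 to 30 reads). Those groups did not overlap, and the change of 0.73 was not called (SE 0.51, limma adjusted p 0.399). It passed the filter there only through the treated group. Molm-14 had 0 to 2 reads of LILRA5 in each library.

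LILRA6 (ENSG00000244482, chr19:54236592-54242791), the activating near-copy of LILRB3, had the lowest mean per length of the 8 members with DMSO in each line. In SKNO-1 it had 12, 3 and 8 reads with DMSO and 30, 38 and 23 with RMC-4550, a log2 change of 2.07 (SE 0.74, 3.94-fold, limma adjusted p 0.0495). It passed the filter there only through the treated group. The call was lost without a trend in the spread, with no filter, with quantile normalisation and with each of 11 single libraries left out, among them 9 of the Molm-14 and MV4-11 libraries and replicates 2 and 3 of SKNO-1 with DMSO. In MV4-11 it went from 3, 0 and 6 reads to 14, 10 and 13, without overlap and untested, and the Molm-14 libraries held 1 to 4 reads each. The groups in which LILRA6 was higher were those in which LILRB3 was higher, and reads of this pair cannot be told apart over the shared sequence.

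By class, RMC-4550 was followed by calls in the higher direction only. In Molm-14, LILRB4 and LILRB2 were called higher, 2 of 3 tested inhibitory members beside 0 of 2 tested activating members and 21.5% of all genes tested in that line. LILRB2 entered that test only through its treated libraries, so these had to lie above its DMSO libraries. Setting it aside leaves 1 call (LILRB4). In MV4-11 the counts were 4 of 4 inhibitory and 1 of 3 activating members, beside 5.85% of all genes. In SKNO-1 they were 3 of 4 inhibitory and 2 of 4 activating members, beside 10.8% of all genes. LILRA6 again entered only through its treated libraries, and the other 4 calls did not. Called lower were 0 members in any line, beside 25.2%, 8.03% and 16.2% of genes in the same order of lines. By library values alone, every treated library was above the DMSO libraries for 2 of the 8 members in Molm-14, beside 26.9% of genes tested. The same held for 7 members in MV4-11, 1 of which (LILRA6) was too low for the test there, beside 11.1% of genes, and for 6 members in SKNO-1, beside 26.6%. Every treated library was below for 2, 0 and 1 members (Molm-14, MV4-11, SKNO-1), beside 33.1%, 13.5% and 35.4% of genes. At an unadjusted p under 0.05 LILRB1, LILRA1 and LILRA2 were lower in Molm-14, and fits of the SKNO-1 libraries alone called LILRA5 lower there. Over all genes in SKNO-1, 1588 were called higher and 2381 lower, and median-ratio scaling in place of the deposited scaling gave 1977 and 1932, with 5 members called higher under both. The median log2 change of the members tested was -0.25 in Molm-14 (5 members), 0.74 in MV4-11 (7) and 0.64 in SKNO-1 (8), and that of all genes tested was -0.06, -0.01 and -0.05. Without the 4 libraries over 10% mitochondrial reads 1 member was called higher and 1 lower in Molm-14, where that fit called 26.6% of all genes higher and 32.1% lower. It called 5 members higher in MV4-11 (8.85% of all genes) and 6 in SKNO-1 (21.2%).

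Markers of monocytes and macrophages moved with the drug in the same libraries. Their summed level over 9 markers went from between 192 and 285 CPM to between 302 and 373 CPM in MV4-11 and from between 298.5 and 306 to between 473 and 480 CPM in SKNO-1, without overlap. In Molm-14 it was 181 to 190 CPM with DMSO and 149 to 255 CPM with RMC-4550. CSF1R, the receptor for macrophage colony-stimulating factor, rose in all 3 lines, by 2.47 in Molm-14 (12.6 to 70.2 CPM), 1.20 in MV4-11 (56.3 to 129 CPM) and 1.06 in SKNO-1 (132.5 to 277 CPM) on the log2 scale. Of the list, 1 of 5 tested was called higher and 1 lower in Molm-14, 2 of 4 higher in MV4-11, and 2 of 4 higher and 1 lower in SKNO-1. The integrin ITGAM rose by 0.46 in MV4-11 and 0.78 in SKNO-1, while FCGR1A fell by 0.91 on the log2 scale in Molm-14 and by 0.42 in SKNO-1. FCGR3A, an Fc receptor of mature monocytes and macrophages, had 3 reads or fewer in every library, and CD14 had at most 9. Of 5 plasmacytoid dendritic cell markers, NRP1 rose in all 3 lines (0.78, 0.69 and 1.49), while CLEC4C had 3 reads or fewer in every library. TCF4 changed by -0.86 (called lower) in Molm-14, -0.06 (not called) in MV4-11 and 0.93 (called higher) in SKNO-1. PTCRA changed by 1.29 (called higher) in Molm-14, and by 0.41 in MV4-11 and 0.64 in SKNO-1 without a call. The part of these markers in the LILR changes was not tested.

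**Figure D3:**
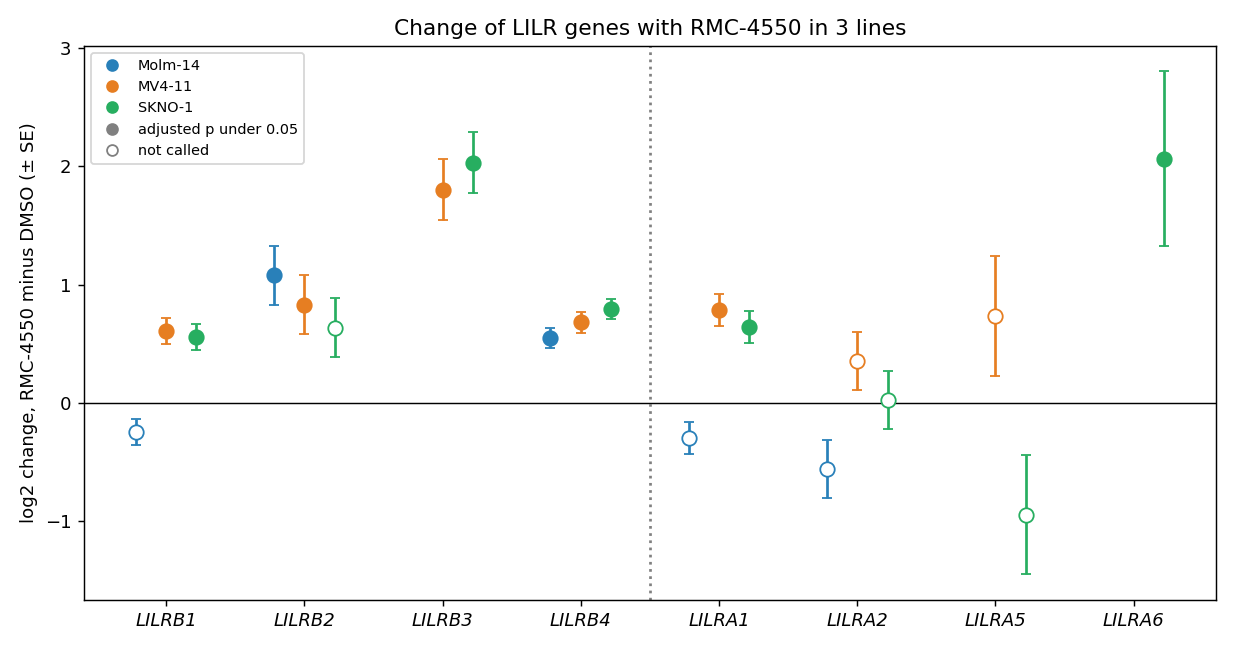
log2 change with RMC-4550 (RMC-4550 minus DMSO, ± SE from limma) for each LILR gene tested in Molm-14 (blue), MV4-11 (orange) and SKNO-1 (green), with filled points where the adjusted p was under 0.05. LILRB3 lies near 2 in MV4-11 and SKNO-1, LILRB4 is filled in all 3 lines, and LILRB1 and LILRA1 lie below 0 in Molm-14 and above 0 in the other lines.

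The response to RMC-4550 differed between MV4-11 and Molm-14, the lines that share FLT3-ITD, for 3 of 7 members tested, beside 7.78% of all genes with a higher response in MV4-11. The difference in log2 change was 0.86 for LILRB1 (limma adjusted p 0.00209), 1.09 for LILRA1 (limma adjusted p 0.00189) and 1.57 for LILRB3 (limma adjusted p 0.00965). The LILRB3 difference was testable only through MV4-11, rests on 2 to 5 reads in each Molm-14 library and was not called in a fit of these lines alone (limma adjusted p 0.0535, with 3.14% of all genes called higher). The SKNO-1 response, set against the mean response of the other lines, was called for 0 of 8 members by limma, beside 1.17% of genes higher and 2.16% lower. LILRB1, LILRB3 and LILRA1 had an unadjusted p under 0.05 there, and a fit that held the mitochondrial share called these 3 higher, beside 5.97% of all genes.

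Without drug, the inhibitory members rose in level from Molm-14 over MV4-11 to SKNO-1. All 4 were called higher in SKNO-1 than in Molm-14 (31.8% of all genes were), in MV4-11 than in Molm-14 (25.1%) and in SKNO-1 than in MV4-11 (20.1%). LILRB2 and LILRB3 entered both contrasts with Molm-14 only through the higher line. For these 2 of the 4 members the libraries of the higher line therefore had to lie above those of Molm-14. Against Molm-14, SKNO-1 had 35.4-fold more LILRB1, 46.8-fold more LILRB2, 20.3-fold more LILRB3 and 3.92-fold more LILRB4 by ratio of mean CPM. Against MV4-11 these ratios were 2.01, 2.32, 1.68 and 1.27 (log2 differences 1.01, 1.22, 0.74 and 0.35). The LILRB3 difference (limma adjusted p 0.0307) was lost without any 1 MV4-11 DMSO library and without replicate 1 or 2 of SKNO-1 with DMSO. The activating LILRA1 followed the same order, at 13.8-fold more in SKNO-1 than in Molm-14 and 2.14-fold more than in MV4-11. LILRA5 was at least 40.6-fold higher in SKNO-1 than in Molm-14, with a floor of 3 reads in each Molm-14 library, and 8.04-fold higher than in MV4-11 (limma adjusted p 0.000235), and it entered both contrasts only through SKNO-1. The floor covers counting error only. LILRA2 was the tested activating member without a call between the untreated lines in the main fit.

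To set members beside each other, reads were divided by the summed exon length of GENCODE 29 as RPKM (CPM per 1000 bases of exon). In Molm-14 with DMSO the order was LILRB4 at 11.1 ± 0.0947 RPKM, LILRA2 at 9.31 ± 0.540, LILRA1 at 1.18 ± 0.117 and LILRB1 at 0.251 ± 0.0339. LILRB2 at 0.178 overlapped LILRB1, and LILRB3, LILRA5 and LILRA6 overlapped their neighbours at 0.0605 or less. In MV4-11 LILRB4 stood at 34.1 ± 0.336 RPKM, LILRA2 at 8.44 ± 2.22 and LILRA1 at 7.60 ± 1.03, the last pair overlapping, before LILRB1 at 4.43, LILRB2 at 3.59, LILRB3 at 0.731, LILRA5 at 0.485 and LILRA6 at 0.0638. In SKNO-1 LILRB4 stood at 43.5 ± 0.565 RPKM and LILRA1 at 16.3 ± 0.578. LILRB1 at 8.88, LILRA2 at 8.77 and LILRB2 at 8.33 overlapped in turn, followed by LILRA5 at 3.90, LILRB3 at 1.23 and LILRA6 at 0.131. LILRA2 thus stood beside LILRB4 in Molm-14, where the other members were low.

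The inhibitory members together outweighed the activating members in summed signal per length in every library. In Molm-14 their share was 52.0%, 53.7% and 51.2% with DMSO and 66.5%, 75.2% and 66.6% with RMC-4550, a rise of 17.1 percentage points without overlap. In SKNO-1 it was 68.2%, 67.5% and 68.4% with DMSO and 74.1%, 74.2% and 74.5% with RMC-4550, a rise of 6.25 points without overlap. An exact two-sided permutation test gave p = 0.1 in each of these lines, the smallest that 3 against 3 allows (n = 3 per group). In MV4-11 the share was 74.9%, 67.5% and 74.3% with DMSO and 78.2%, 72.3% and 71.3% with RMC-4550, which overlapped (exact permutation p = 0.6). The highest treated share in Molm-14 and in MV4-11, and the higher 2 of the 3 DMSO shares in MV4-11, were those of the libraries over 10% mitochondrial reads. Their part in the share was not tested, and the Molm-14 treated libraries other than replicate 2 were still at 66.5% and 66.6%. LILRB4 alone held 47.8% to 66.5% of the LILR signal in the group means. Without it the share was 4.44% with DMSO and 9.07% with RMC-4550 in Molm-14 (5.82% with replicate 2, the library rich in mitochondrial reads, left out as well), 34.9% and 38.9% in MV4-11, and 38.8% and 45.7% in SKNO-1. The summed inhibitory level went from 11.6 to 17.02 RPKM in Molm-14, from 42.9 to 70.3 in MV4-11 and from 61.9 to 106.3 in SKNO-1. The summed activating level went from 10.6 to 7.73, from 16.6 to 24.97 and from 29.1 to 36.8 RPKM. LILRA2 held 88.0% of the activating signal in untreated Molm-14 and 30.1% in untreated SKNO-1.

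**Figure D4:**
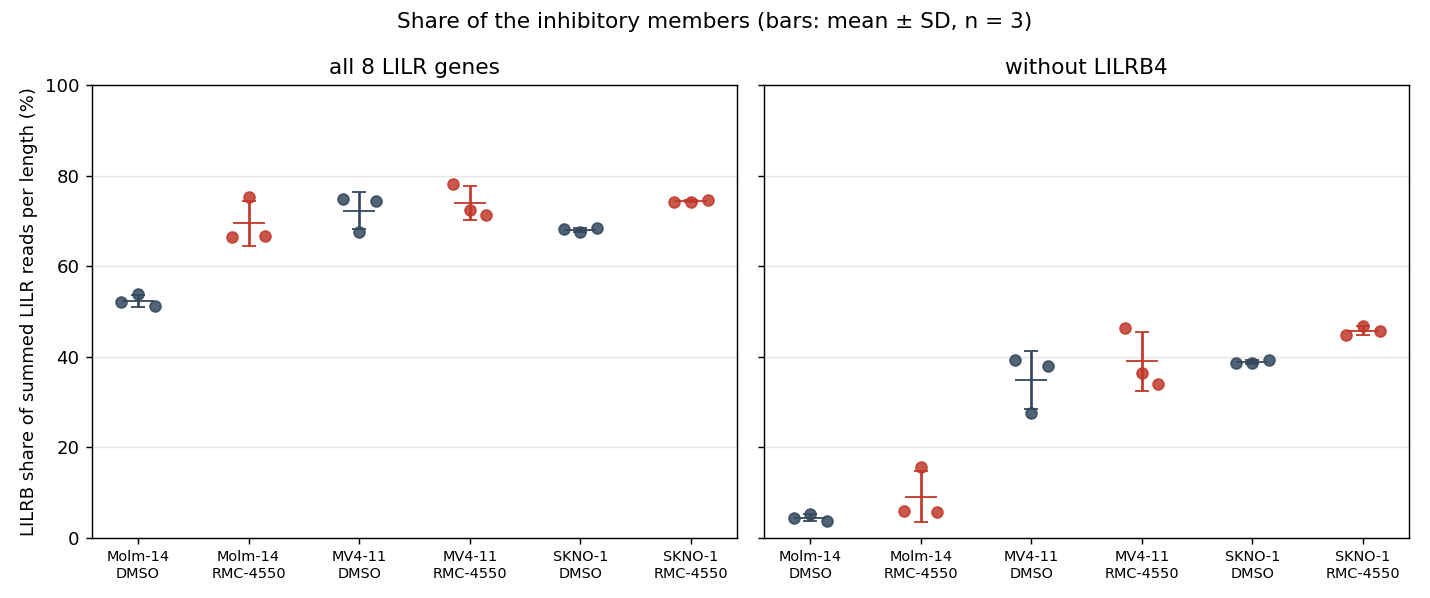
Share of the inhibitory members in the summed LILR reads per exon length (%) for each library, with the mean ± SD of 3 libraries as bars, for all 8 genes (left) and without LILRB4 (right). With all 8 genes, treated Molm-14 (66.5% to 75.2%) and SKNO-1 (74.1% to 74.5%) libraries lie above their DMSO libraries, and those of MV4-11 overlap. Without LILRB4, the Molm-14 libraries lie far below those of the other lines.

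The sequence before the start sites is shown for the members that share a motif there. RefSeq windows on GRCh38.p14, from 250 bases before to 50 after an annotated start, were at hand for 7 of the 8 members (13 windows, none for LILRA6). The letters GGAAGT, the core bound by ETS factors such as PU.1, were searched on both strands and stood in 9 of the 13 windows, in 5 members, against 22.8% of 35116 such windows of all genes. Windows of 1 gene overlap, and those 9 windows hold 7 distinct sites, so the window counts are not independent. A longer PU.1-type motif, GAGGAAG, stood in 1 LILRB1 window and in 13.6% of all windows, and there it overlaps GGAAGT. The 36 bases around 1 match for each member follow in the direction of the gene, with the match in capitals (ACTTCC is the match on the opposite strand).
LILRB1, chr19:54630384-54630419, plus strand: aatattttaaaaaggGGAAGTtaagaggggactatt
LILRB2, chr19:54281176-54281211, minus strand: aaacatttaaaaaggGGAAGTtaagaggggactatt
LILRA1, chr19:54593531-54593566, plus strand: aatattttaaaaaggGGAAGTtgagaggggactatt
LILRA5, chr19:54313232-54313267, minus strand: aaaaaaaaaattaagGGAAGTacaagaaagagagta
LILRA2, chr19:54573724-54573759, plus strand: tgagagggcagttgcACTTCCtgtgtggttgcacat
The matches of LILRB2, LILRA1 and LILRA5 begin at position -86 from the start and that of LILRB1 at -85 from 1 of its starts. The stretches of LILRB1, LILRB2 and LILRA1 are near-identical. The windows of LILRB3 and LILRB4, which rose in MV4-11 and SKNO-1, held no match, while LILRA2, called in no line, and LILRA5, lower in every treated SKNO-1 library, held 1 each. A match of letters is a description and shows neither binding nor a cause.

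The lists around these receptors were counted in the same fit, in which 21.5% of all genes were called higher and 25.2% lower in Molm-14, 5.85% and 8.03% in MV4-11, and 10.8% and 16.2% in SKNO-1. Each list count below is to be read against these shares. Of 8 activating partners (adaptors and the kinases that read them), 3 were called higher and 1 lower in Molm-14. The counts were 1 and 0 in MV4-11 and 3 and 0 in SKNO-1. TYROBP, the adaptor DAP12, rose in Molm-14 by 1.58 on the log2 scale, from 43.2 ± 2.99 to 131 ± 28.2 CPM (limma adjusted p 2.93e-06). In SKNO-1 it rose by 0.90, with 120 ± 8.69 CPM before and 224 ± 15.9 CPM after (limma adjusted p 0.00105). FCER1G, the adaptor of the LILRA receptors, was at 0.995 ± 0.0925 CPM in untreated Molm-14 against 50.8 ± 15.6 in MV4-11 and 45.6 ± 0.525 in SKNO-1. It rose to 1.98 ± 0.538 CPM in treated Molm-14 (0.94, limma adjusted p 0.00439), and its changes of -0.59 in MV4-11 and -0.55 in SKNO-1 were not called. In SKNO-1 every treated library (30.21 to 31.55 CPM) was still below the DMSO libraries (45.07 to 46.12 CPM), as for 35.4% of genes there. The MV4-11 groups overlapped (33.35 to 63.44 CPM with DMSO, 24.3 to 42.57 CPM with RMC-4550). FCER1G and, below, PTPN6 were named for their place in LILR signalling, after their values were seen.

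Of 7 inhibitory partners, 2 were called higher and 2 lower in Molm-14, near the shares of all genes (21.5% and 25.2%). In MV4-11 these counts were 1 and 0, and in SKNO-1 1 and 1. PTPN11, which encodes the drug's target SHP2, went from 242 ± 10.9 to 125 ± 35.8 CPM in Molm-14 and was called lower there (limma adjusted p 0.00135). The SKNO-1 values of 130 ± 7.91 and 83.4 ± 3.79 CPM were also called lower (limma adjusted p 0.0367). Its change in MV4-11 was -0.30 (limma adjusted p 0.423). The adaptor DOK2 rose in all 3 lines, by 0.40, 0.48 and 0.58 on the log2 scale. PTPN6, encoding SHP1, changed by -0.15, -0.16 and -0.12 without a call.

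Of 20 LILR ligand genes, 16, 16 and 14 were tested in that order of lines, with 4 higher and 4 lower, 1 and 1, and 3 and 0. The Molm-14 and MV4-11 counts lie near the shares of all genes called there (21.5% and 25.2%, 5.85% and 8.03%). S100A9, a secreted calcium-binding protein of myeloid cells, fell in Molm-14 from 27.6 ± 0.131 to 13.2 ± 5.04 CPM and in MV4-11 from 3.32 ± 1.12 to 0.701 ± 0.0633 CPM, where it entered the test only through the DMSO libraries. CD1D, a lipid-presenting relative of MHC class I, rose by 0.55 in MV4-11 and 0.64 in SKNO-1 and fell by 0.68 on the log2 scale in Molm-14. The MHC class I gene HLA-E rose by 0.32 in Molm-14 and 0.36 in SKNO-1, with 0.33 in MV4-11 not called (limma adjusted p 0.0767).

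Other inhibitory receptors of myeloid cells, most of them with ITIMs, were called higher in part. In Molm-14 6 of 9 tested were called higher and 1 lower, and in MV4-11 and SKNO-1 6 of 12 were called higher and 0 lower, beside 21.5%, 5.85% and 10.8% of all genes higher in the 3 lines. VSIR, a checkpoint receptor, rose by 1.55, 0.91 and 0.48 on the log2 scale, in the order Molm-14, MV4-11, SKNO-1. It has no classical ITIM and is among the genes counted as higher in each line. FCGR2B, the inhibitory Fc receptor, rose by 1.80, 0.60 and 0.43. PILRA rose by 0.41, 0.47 and 0.87, and the collagen receptor LAIR1 by 0.52, 0.31 and 0.64. The other activating receptors gave 1 higher and 2 lower of 5 tested in Molm-14, 0 of 7 in MV4-11, and 1 higher and 3 lower of 8 in SKNO-1 (10.8% and 16.2% of all genes), 1 of the 3, TREM1, tested only through the DMSO libraries. Among them CD300LB rose by 1.00 in Molm-14 and 0.74 in SKNO-1, while the high-affinity Fc receptor gene FCGR1A fell by 0.91 and 0.42 on the log2 scale and SIRPB1 by 0.51 and 0.75 in those lines. The difference between the inhibitory and the activating lists was not tested.

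Neighbouring genes of the leukocyte receptor complex gave 5 of 10 tested called higher in Molm-14, with 0 lower. MV4-11 had 4 of 15 higher and SKNO-1 had 5 of 13, again with 0 lower, beside 21.5%, 5.85% and 10.8% of all genes higher. LAIR1 was higher in all 3 lines. TTYH1 was called higher by 1.04 in MV4-11 and 1.22 in SKNO-1 on the log2 scale, and its call in Molm-14 (0.88, from 0.636 CPM) was testable only through the treated libraries. LENG9 and TSEN34 were called higher in MV4-11 (0.67 and 0.53) and SKNO-1 (0.39 and 0.46). Of 43 calls of the list genes taken by rule or for their place, 15 were lost, or no longer tested, when some single library was left out. These were PTPN11, HLA-E, FCGR1A, VSIR, CD300LB and TSEN34 in SKNO-1, HLA-E, DOK2, TTYH1 and PILRA in Molm-14, and S100A9, DOK2, TTYH1, LAIR1 and PILRA in MV4-11. The change of PTPN11 in SKNO-1 then ran from -0.68 to -0.59 and that of FCGR1A from -0.45 to -0.37. Of the other LILR genes, LILRA4 and LILRB5 were too low for a test, with 0 to 27 and 0 to 17 reads per library.

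Genes with the pattern most like the leading member of each class were ranked by Pearson r of log2 values over the 18 samples, among 11008 genes with a mean of at least 5 CPM. For LILRB4 the first was ENHO (0.994). For LILRA2 the first 3 were IMPA2 (0.959), IRF8 (0.912) and P2RY2 (0.911), and IRF8 went from 362 CPM in Molm-14 with DMSO to 230 with RMC-4550. The samples share lines, treatments and the split by mitochondrial reads, so these values are descriptions. Between LILRA2 and each other member r was 0.009 to 0.381.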

How the data were processed

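Per the labels' protocols, RNA bound to oligo(dT) beads was made into DNA nanoball libraries. The submitters' processing notes name FastQC, STAR, limma and GRCh38. The counter, annotation, filters and versions are not given in the sources used here. The authors deposited log2 values for 40184 genes. From the values, each is the log2 of reads plus 0.5 in CPM of a scaled library (scaling factors 0.89 to 1.11). Undoing this gave whole reads (within 0.01) for 100% of values under 200 reads. The design had assumed linear values, so log2(CPM + 1) became an alternative.

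The deposited log2 values entered limma 3.58.1 (R 4.3.3; lmFit and eBayes with a trend; two-sided) in 1 fit of 6 group means over 18 samples (12 residual degrees of freedom). The fit held 16262 genes that reached 1 CPM in 3 or more samples. A gene was tested in a contrast where it reached 1 CPM in 3 or more samples of the groups compared. Benjamini-Hochberg adjusted p under 0.05 was a call. A fit of one line's libraries alone, other scalings, filters, voom weights and left-out libraries were alternatives. The script was tested on simulated data. Members, lists, line markers and motifs were chosen with earlier results of these data known. The rules name every member, list genes called the same way in at least 2 lines (at most 4 a list), and the 3 genes most like LILRB4 and LILRA2. Some genes these rules pick are not reported here. Coordinates are GENCODE 29 on GRCh38. Replicate numbers were not used as pairs. No replicate pair agreed within sampling noise.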

Additional observations from a re-analysis of the deposited data

Results flagged for a closer look

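For 3 members the response to RMC-4550 differed between the 2 FLT3-ITD lines by a test of the difference itself in limma. The log2 response in MV4-11 exceeded that in Molm-14 by 0.86 for LILRB1, by 1.57 for LILRB3 and by 1.09 for LILRA1, with every treated library above its DMSO libraries in MV4-11. In Molm-14 every treated library was below the DMSO libraries for LILRB1, while the groups overlapped for LILRA1 and LILRB3. The LILRB1 and LILRA1 differences stayed called under each alternative run and each library left out, with ranges of 0.73 to 1.27 and 0.89 to 1.35. Untreated levels of these genes in Molm-14 were 1.26, 0.226 and 4.24 CPM for LILRB1, LILRB3 and LILRA1, against 22.2, 2.73 and 27.3 CPM in MV4-11.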

How the results depend on the processing

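Of 641 values of 55 member differences under the alternatives other than single libraries left out, 593 kept their direction and side of the threshold, 9 lost a call, 27 gained one and 12 changed sign. The main counts of members called were 2 in Molm-14, 0 for the SKNO-1 response, 5 between untreated MV4-11 and Molm-14, 6 between untreated SKNO-1 and Molm-14, and 3 for the MV4-11 against Molm-14 response. The Molm-14 count was 1 with a mean of at least 5 CPM and in separate fits, and 4 with the mitochondrial covariate and with quantile normalization. The SKNO-1 response count was 1 with log2(CPM + 0.1) and without the libraries over 10% mitochondrial reads, 2 with log2(CPM + 1) and with quantile normalization, and 3 with the mitochondrial covariate. Untreated MV4-11 against Molm-14 gave 3 without the libraries over 10%. The causes were not tested, except that fewer libraries leave fewer members past the filter. Fits with 1 MV4-11 DMSO library left assume that it varies like the other groups.

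Leaving out single libraries gave 1 to 3 members called in Molm-14 (1 without replicate 2 with RMC-4550), 4 to 5 in MV4-11, 4 to 6 in SKNO-1, 3 to 6 between untreated SKNO-1 and Molm-14, 3 to 5 between untreated MV4-11 and Molm-14, 4 to 6 between untreated SKNO-1 and MV4-11, 0 to 1 for the SKNO-1 response and 3 to 5 for the MV4-11 against Molm-14 response. The inhibitory shares then ran from 51.6% to 52.9% and 66.6% to 70.9% in Molm-14, 70.9% to 74.6% and 71.8% to 75.2% in MV4-11, and 67.9% to 68.3% and 74.2% to 74.4% in SKNO-1 (DMSO, then RMC-4550).

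With coding lengths the shares were 58.7% and 74.8% in Molm-14, 78.1% and 79.9% in MV4-11, and 75.4% and 80.9% in SKNO-1. Without LILRB4, an alternative chosen after seeing the data, they were 4.44% and 9.07% (5.82% if treated Molm-14 replicate 2 is left out too), 34.9% and 38.9%, and 38.8% and 45.7%. Without LILRA6 and LILRB3, treated SKNO-1 was at 73.6%.

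Signs changed for differences of LILRA2, LILRB2, LILRB4 and LILRA6 that were not called in the main fit. LILRA2 gave 0.022 for SKNO-1 minus Molm-14 with quantile normalization, -0.50 and -0.33 for SKNO-1 minus MV4-11 and 0.37 and 0.24 for MV4-11 minus Molm-14 with the mitochondrial covariate and without the libraries over 10%. Those with the mitochondrial covariate were called in the reversed direction (limma adjusted p 0.00112 for SKNO-1 minus MV4-11 and 0.00771 for MV4-11 minus Molm-14). The LILRB2 response in MV4-11 minus Molm-14 (main -0.25) was 0.23 with log2(CPM + 1), 0.27 with the mitochondrial covariate, 0.15 with quantile normalization and 0.30 without the libraries over 10%. That of LILRB4 was -0.021 with the mitochondrial covariate and -0.041 with quantile normalization. For LILRA6, the SKNO-1 response set against the mean of the other lines (main 0.37) was -0.70 without the libraries over 10%. With single libraries left out, the LILRB2 response in MV4-11 minus Molm-14 ran from -0.49 to 0.10. The change of LILRA2 with RMC-4550 in SKNO-1 ran from -0.025 to 0.07, and untreated LILRA2 in SKNO-1 minus MV4-11 from -0.047 to 0.29. The SKNO-1 response set against the mean of the other lines ran from -0.057 to 0.225 for LILRA2 and from -0.16 to 0.94 for LILRA6.

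Samples with the same replicate number did not deviate together in each line (correlations -0.40 to 0.59), so pairing by number was not shown. With 3 libraries per group, and the split by mitochondrial reads in MV4-11, these correlations cannot decide whether the numbers pair samples. With the replicate number as a block, the members called stayed at 2, 5 and 5 (Molm-14, MV4-11, SKNO-1). Depth limits LILRA5, LILRA6 and LILRB3 in Molm-14, at 0 to 5 reads per library.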
